A study of Mus musculus with 2 samples.

Results

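Adrenomedullin is a vasoactive peptide encoded by Adm. It signals through Calcrl, the calcitonin receptor-like receptor, which reaches the cell surface and binds peptide only together with a receptor activity-modifying protein, encoded by Ramp1, Ramp2 or Ramp3. With RAMP2 or RAMP3 the receptor responds to adrenomedullin, and with RAMP1 to calcitonin gene-related peptide, in each case mainly through Gs and cAMP. These 5 genes were followed here through every probe set that the annotation of the array ties to one of them and to no other gene. There are 10 such probe sets, out of 34945 probe sets of 1 gene that cover 18194 genes: 3 for Ramp1, 1 for Ramp2, 1 for Ramp3, 3 for Calcrl and 2 for Adm. The genes were selected on the log2 ratios between these same arrays, in which Ramp3 had stood among the lowest bright genes, so all values are descriptions.

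The cells were 3T3-L1, a mouse preadipocyte line that becomes adipocytes after induction with insulin, dexamethasone and 3-isobutyl-1-methylxanthine. One culture had received siRNA against Phf21a, the gene of the BHC complex subunit BHC80, and the other a control siRNA, siGL3. Both were induced 24 h after transfection and harvested 24 h after that, so both carry an siRNA and both were exposed to the inducers, among them an inhibitor of cAMP breakdown. For both cultures the records give 25 mM glucose, 10% fetal bovine serum and 1 µg of total RNA. Total RNA of each was read on 1 Affymetrix mouse array, which leaves no error between cultures and no test, and with 1 array per group the precision is limited. Each log2 ratio is of Phf21a siRNA over control siRNA. Many, though not all, are followed by ± a local spread. For it, the log2 ratios of the 1000 detected probe sets closest in mean signal were taken, and the gap from their 16th to their 84th percentile was divided by 2. It is not a spread between cultures.

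Phf21a itself had signals of 306 in the Phf21a siRNA array and 768 in the control array (log2 ratio -1.33) on its brightest probe set. Of its other probe sets, one gave -1.35 and one, with 67.0 in the Phf21a siRNA array and 111 in the control array, gave -0.73. The last was under the detection limit in both, at 43.8 in the Phf21a siRNA array and 39.2 in the control array. Detection required a signal of 51.3, the median of all signals, on at least 1 array, and 11301 genes met it. Signals were raised to a floor of 12.9 before log2 was taken. The median signals were 49.5 in the Phf21a siRNA array and 53.0 in the control array. The poly-A control RNAs, added to the samples in fixed amounts, were brighter in the Phf21a siRNA array by a median log2 ratio of 0.73, so scaling to them lowers each log2 ratio by that amount where both signals stay above the floor, and by less where one does not. Of 11 fibroblast and fat cell markers 9 were detected, as the label of the cells implies. Dlk1, which holds preadipocytes undifferentiated, had signals of 5940 in the Phf21a siRNA array and 12290 in the control array, a log2 ratio of -1.05 and the only detected gene of the list beyond 2-fold. Fabp4, the fatty acid binding protein of adipocytes, was at 0.74, the adipogenic regulator Pparg at 0.67 and the collagen gene Col1a1 at -0.58. With scaling to the poly-A controls Fabp4 was at 0.02, Pparg at -0.06 and Dlk1 at -1.77. Of the 9 detected genes 7 were below 0, against 47.8% of all detected genes. The list median was -0.16, against 0.03 over all detected genes. Lpl, picked after its value was seen, was at -0.15. The preadipocyte receptor Pdgfra was at -0.16 and the late adipokine gene Adipoq was under the detection limit in both arrays. Whether the stage of the cells plays a part in the values of the members was not tested.

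The upstream sequences of the 3 members with a probe set detected in both arrays are shown for reference, as the 250 bases before the RefSeq start in the build GRCm38.p6. RefSeq promoters were matched for 4 of the 5 members (Ramp1, Ramp3, Calcrl, Adm). Capitals mark matches on either strand to GCGTG, a core of hypoxia response elements, or to GGGCGG, a GC box.
Ramp3 (chr11:6658283-6658532, + strand): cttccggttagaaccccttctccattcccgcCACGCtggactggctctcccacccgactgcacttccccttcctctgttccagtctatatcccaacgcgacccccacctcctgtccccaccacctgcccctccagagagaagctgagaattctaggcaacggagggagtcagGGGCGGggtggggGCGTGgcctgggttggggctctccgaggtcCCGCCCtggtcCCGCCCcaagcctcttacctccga
Calcrl (chr2:84425267-84425516, - strand): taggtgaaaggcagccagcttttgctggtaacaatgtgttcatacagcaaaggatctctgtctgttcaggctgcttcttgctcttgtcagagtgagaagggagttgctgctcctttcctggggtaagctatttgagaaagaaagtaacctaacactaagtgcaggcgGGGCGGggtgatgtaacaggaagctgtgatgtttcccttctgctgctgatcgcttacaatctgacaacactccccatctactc
Adm (chr7:110627407-110627656, + strand): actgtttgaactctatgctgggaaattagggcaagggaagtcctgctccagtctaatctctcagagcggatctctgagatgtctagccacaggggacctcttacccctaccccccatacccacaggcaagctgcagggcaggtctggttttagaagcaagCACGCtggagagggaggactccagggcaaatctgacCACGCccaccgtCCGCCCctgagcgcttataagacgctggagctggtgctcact
Counting the base before the start as -1, GCGTG matches began at -219 and -65 in Ramp3 and at -90 and -54 in Adm, and there were 0 in Calcrl. Ramp3 held 3 GGGCGG matches, at -78, -35 and -24, Calcrl 1 at -83 and Adm 1 at -42. GCGTG was found in 28.2% and GGGCGG in 32.7% of 32851 promoter windows of this length. ACGTG, TGACGTCA (the cAMP response element), its shorter core TGACG, which overlaps it, and TATAAA had 0 matches in the 4 members, against 16.6%, 1.55%, 17.8% and 12.4% of all windows. A match is a stretch of letters, not a binding site.

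Ramp3 was the member with the largest difference. RAMP3 pairs with the calcitonin receptor-like receptor to form an adrenomedullin receptor and steers its recycling after internalisation. Its only probe set (1420401_a_at, Entrez gene 56089) had a signal of 208 in the Phf21a siRNA array, against 1170 in the control array. That is 5.61-fold lower, a log2 ratio of -2.49 ± 0.51. Both signals were well over the detection limit. Among the 1000 detected probe sets nearest in signal, 2, that of Ramp3 included, were this low, and in the order of all detected genes Ramp3 was number 26 from the lowest. In RNA of a whole culture, fewer cells that express a gene and less of its RNA per cell cannot be told apart.

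Calcrl, the receptor itself, was lower on both of its detected probe sets. The brighter (1425814_a_at, Entrez gene 54598) had signals of 170 in the Phf21a siRNA array and 455 in the control array, 2.68-fold lower, with a log2 ratio of -1.42 ± 0.56. The second (1418489_a_at) had 46.0 in the Phf21a siRNA array, under the detection limit, and 85.4 in the control array (-0.89 ± 0.64). The third (1459536_at) was under the floor in both arrays, at 7.01 in the Phf21a siRNA array and 1.86 in the control array, and gives no ratio. The detected probe sets thus had the same direction and differed in size. Among the 1000 probe sets nearest in signal to the brighter one, 13, itself included, were as low or lower, and the gene was number 269 from the lowest of all detected genes.

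**Figure D1:**
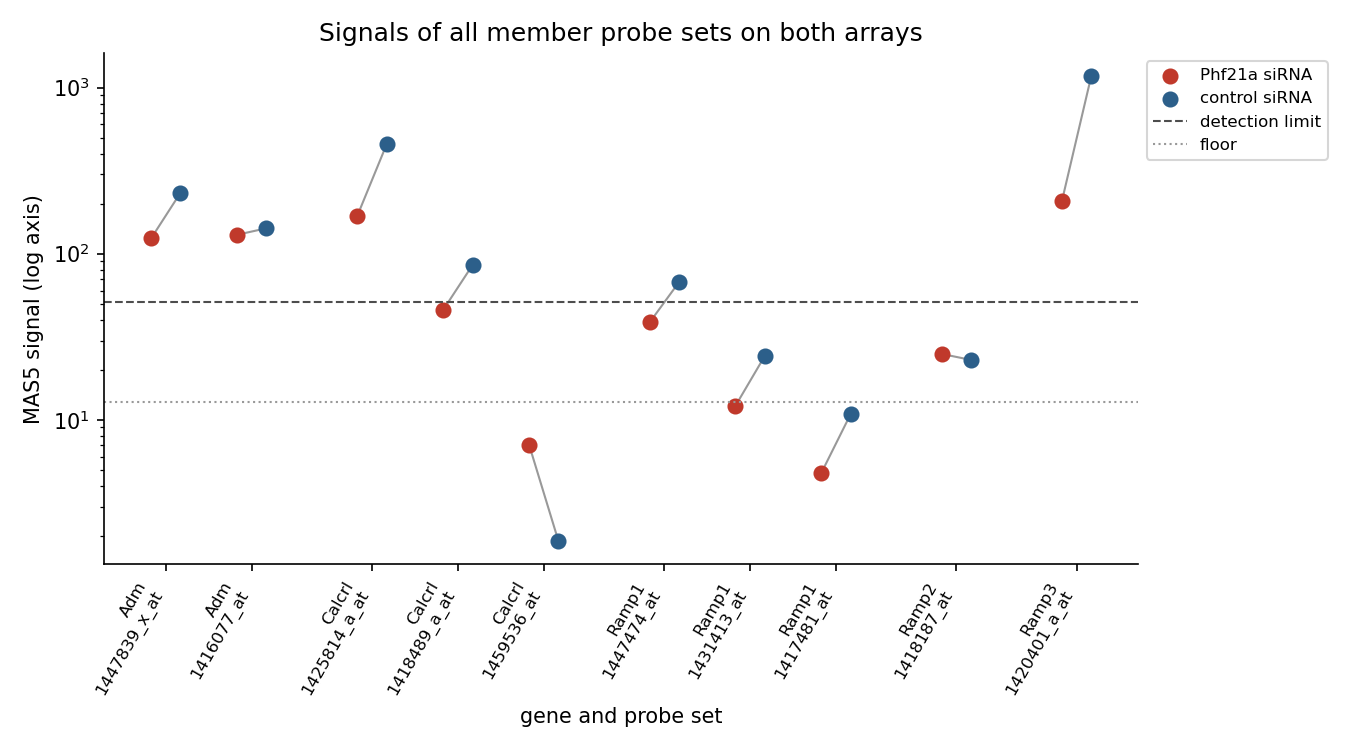
MAS5 signal (log axis) of each of the 10 member probe sets in the Phf21a siRNA array (left point of each pair) and the control siRNA array (right point), 1 array each; the dashed line is the detection limit of 51.3 and the dotted line the floor of 12.9. Ramp3 has a signal of 208 in the Phf21a siRNA array and 1170 in the control array, the brighter Calcrl probe set 170 in the Phf21a siRNA array and 455 in the control array, and the Ramp2 probe set lies under the detection limit in both.

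Adm, the ligand, did not show one value. The probe set without a cross-hybridisation mark (1416077_at, Entrez gene 11535) had nearly equal signals of 130 in the Phf21a siRNA array and 142 in the control array, a log2 ratio of -0.13 ± 0.62. The other (1447839_x_at) had 124 in the Phf21a siRNA array and 232 in the control array, a log2 ratio of -0.91 ± 0.59. The suffix _x_at marks probe sets in which some probes may bind other transcripts. The probe sets agreed on the level in the Phf21a siRNA array being no higher than in the control array, and disagreed on whether it was 1.09-fold or 1.88-fold lower.

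The remaining RAMP genes were dim. Ramp1, which turns the receptor towards calcitonin gene-related peptide, was detected only in the control array and on 1 of 3 probe sets (1447474_at, Entrez gene 51801). That probe set had signals of 38.5 in the Phf21a siRNA array and 67.1 in the control array, a log2 ratio of -0.80 ± 0.73, or -0.39 with the lower signal raised to the detection limit. Of the others, 1431413_at had 12.1 in the Phf21a siRNA array, under the floor, and 24.2 in the control array. The dimmest, 1417481_at, was under the floor in both, at 4.80 in the Phf21a siRNA array and 10.8 in the control array. All 3 probe sets had the lower signal in the Phf21a siRNA array, but at levels where MAS5 signals are uncertain. Ramp2, the partner of the receptor in blood and lymphatic vessels (1418187_at, Entrez gene 54409), was under the detection limit in both arrays, at 24.9 in the Phf21a siRNA array and 22.9 in the control array. A further 2 probe sets list Ramp2 together with Vps25, its neighbour on the chromosome, and were left out because their signal cannot be given to one gene, so the level of Ramp2 rests on 1 dim probe set.

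Over the group, 4 of the 5 genes and 6 of the 10 probe sets were detected, 4 of them in both arrays. Of the 5 genes 2, Ramp3 and Calcrl, were at least 2-fold lower and 0 were at least 2-fold higher. Of all 11301 detected genes 5.47% were at least 2-fold lower and 5.72% at least 2-fold higher. Since this difference helped to choose the members, the count is not set against those shares. Signals were lower in the Phf21a siRNA array for 8 of the 10 probe sets. The exceptions were those of Ramp2 and the dimmest of Calcrl. The share over all probe sets without controls was 53.1%. No conclusion is drawn from the count beside it, for the same reason. Several of the 10 also belong to one gene, and some had signals under the floor.

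**Figure D2:**
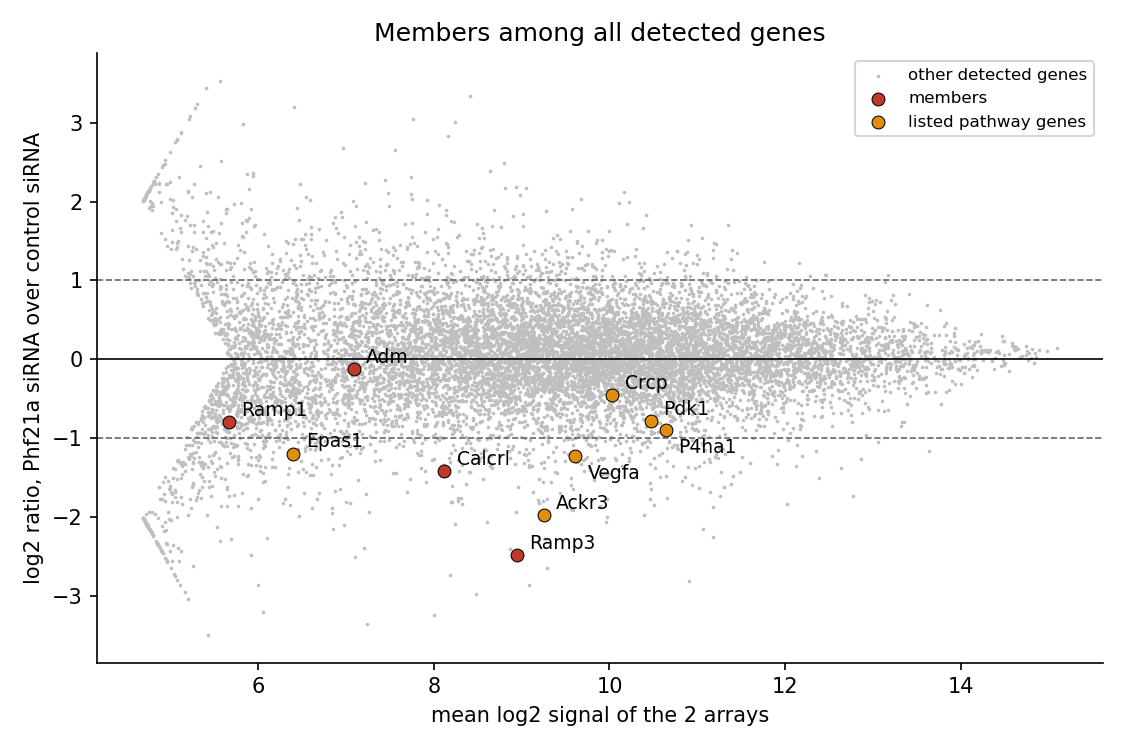
Log2 ratio of Phf21a siRNA over control siRNA against the mean log2 signal of the 2 arrays for the 11301 detected genes (grey), with the 4 detected members in red and 6 listed pathway genes in orange; dashed lines mark 2-fold. Ramp3 at -2.49 and Calcrl at -1.42 lie below the lower dashed line, and Adm at -0.13 lies near 0.

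The genes with the most similar pair of signals were found by the distance between log2 signals over both arrays. For Ramp3 these were Rbmx, an RNA-binding protein (203 in the Phf21a siRNA array and 1079 in the control array, distance 0.12), Apmap, an adipocyte membrane protein (201 in the Phf21a siRNA array and 1463 in the control array, 0.33), and Shmt1, a serine hydroxymethyltransferase (250 in the Phf21a siRNA array and 960 in the control array, 0.39). For Calcrl they were Il13ra1, a receptor chain for interleukin 13 (173 in the Phf21a siRNA array and 440 in the control array, 0.06), Tbc1d4, a Rab GTPase-activating protein of glucose transporter traffic (174 in the Phf21a siRNA array and 441 in the control array, 0.06), and Mtcl1 (185 in the Phf21a siRNA array and 458 in the control array, 0.12). Foxo4, Zbed6 and Kbtbd13 were nearest to Adm, at distances of 0.03 each, and Wdr66, Alpk3 and 4933417D19Rik to Ramp1. With only 2 arrays, likeness means similar signals and no more.

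A list of other receptors and ligands of the calcitonin family, and of proteins that act on them, was read next. Ackr3, an atypical chemokine receptor that also takes up adrenomedullin and does not signal through G proteins, was 3.94-fold lower. Its only probe set (1417625_s_at) had signals of 307 in the Phf21a siRNA array and 1211 in the control array, a log2 ratio of -1.98 ± 0.52. This probe set carries the suffix _s_at, and leaving out suffixed probe sets removes Ackr3 from the list. Crcp, which encodes the receptor component protein that couples the receptor to signalling, had 892 in the Phf21a siRNA array and 1224 in the control array (-0.46 ± 0.48). These were the 2 detected among 7 genes with a probe set, and neither is itself a ligand or receptor of the calcitonin family. Adm2, Calcb, Iapp, Calcr and Gpr182 were under the detection limit in both arrays. No ligand of the family other than Adm was therefore detected at this limit, among those on the list with a probe set.

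Genes that make and clear the peptide were read as a further list. Of its 11 genes 8 were detected, with 1 at least 1.5-fold higher and 0 lower, against 15.2% and 13.9% of all detected genes, and a median log2 ratio of 0.05 against 0.03 over all genes. Cpe, a carboxypeptidase of peptide hormone processing, was 1.54-fold higher (17259 in the Phf21a siRNA array and 11241 in the control array, 0.62 ± 0.22), though scaling to the poly-A controls gave -0.11. Log2 ratios were -0.24 for the convertase Furin, 0.24 for Pcsk7, another convertase, and 0.24 for Mmp2, a matrix protease that cleaves adrenomedullin. Pam, which adds the amide that the active peptide needs, was at -0.06 ± 0.48 (988 in the Phf21a siRNA array and 1029 in the control array); it was picked after its values were seen.

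Other receptors that pair with RAMPs were mostly under the detection limit. Of 11 on the list 3 were detected, all of them dim. Gper1, a membrane oestrogen receptor, had 55.4 in the Phf21a siRNA array and 84.1 in the control array (log2 ratio -0.60 ± 0.60). The secretin receptor Sctr was at -0.39 ± 0.61 and the corticotropin-releasing hormone receptor Crhr1 at 0.38 ± 0.64. The calcitonin, glucagon, GLP-1, VIP, parathyroid hormone and calcium-sensing receptors were under the detection limit in both arrays.

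In the list of receptor desensitisation and traffic 7 of 9 genes were detected. Of these 1 was at least 1.5-fold higher and 0 lower, against 15.2% and 13.9% of all detected genes. The median log2 ratio of the list was 0.17. The gene beyond 1.5-fold was Slc9a3r1, which encodes NHERF1, a scaffold that binds RAMP3 and holds the receptor at the membrane. It was 2.56-fold higher, with signals of 3013 in the Phf21a siRNA array and 1175 in the control array (log2 ratio 1.36 ± 0.45). Its 3 probe sets ranged from 0.81 to 1.36, and with scaling to the poly-A controls the value was 0.63. Grk5, a receptor kinase, was at 0.53 ± 0.49 and -0.20 with that scaling. The beta-arrestins Arrb1 and Arrb2 were at -0.40 ± 0.57 and -0.47 ± 0.53. NHERF1 and RAMP3 transcripts thus lay on opposite sides of 0.

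Of 20 genes of Gs and cAMP signalling 17 were detected, of which 4 were at least 1.5-fold higher and 2 lower. Their median was -0.10. Adcy7, an adenylate cyclase, had 600 in the Phf21a siRNA array and 259 in the control array (1.21 ± 0.56). Its 3 probe sets ranged from 0.37 to 1.21, and with scaling to the poly-A controls the value was 0.49. Prkar2a, a regulatory subunit of protein kinase A, had 1672 in the Phf21a siRNA array and 801 in the control array (1.06 ± 0.47). Its detected probe sets ranged from 0.64 to 1.17, and the value was 0.34 with that scaling. The other adenylate cyclases beyond 2-fold were each detected in 1 array: Adcy5, with 22.1 in the Phf21a siRNA array and 96.6 in the control array on an _x_at probe set, and Adcy2, with 51.7 in the Phf21a siRNA array and 17.1 in the control array. Raised to the detection limit, their log2 ratios were -0.91 and 0.01. Gnas, the stimulatory G protein alpha subunit, picked after its value was seen, was at 0.15 ± 0.22. Prkar1b, also picked and among the genes at least 1.5-fold higher, was at 0.65 ± 0.64. Its 3 detected probe sets ranged from -0.90 to 2.26.

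**Figure D3:**
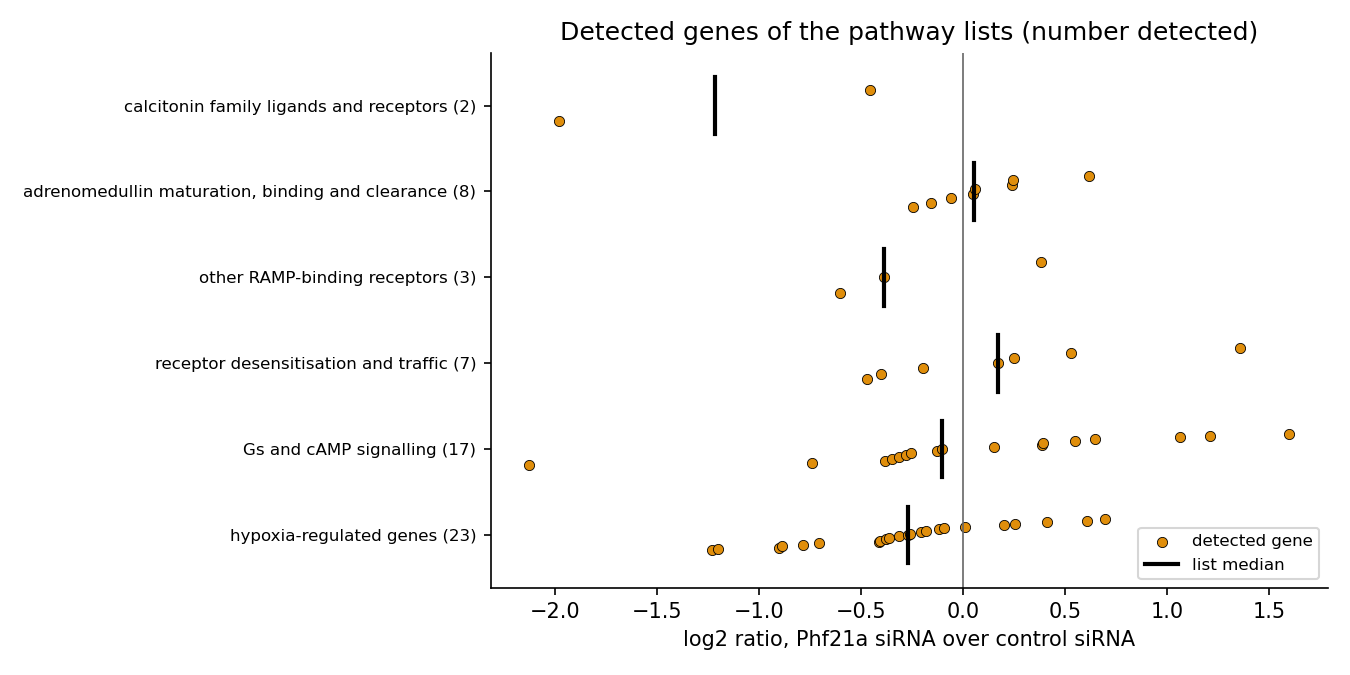
Log2 ratios of Phf21a siRNA over control siRNA for the detected genes of 6 pathway lists (points, 1 array per group), with each list median as a black bar; the number detected stands beside each name. The medians lie between -0.39 and 0.17, with the hypoxia-regulated list at -0.27. The exception is the calcitonin family list at -1.22, where the 2 detected genes are Ackr3 and Crcp.

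Adm is a target of the hypoxia-inducible factors. Genes regulated by them were read as the setting of its own value, in a list that also holds the factors and their regulators. The list is called hypoxia-regulated for short. All 23 listed genes with a probe set were detected. Of these 6 were at least 1.5-fold lower and 2 at least 1.5-fold higher, against 13.9% and 15.2% of all detected genes. Below 0 were 17 of the 23, or 73.9%, against 47.8% of all detected genes, and the median log2 ratio was -0.27. Vegfa, the vascular growth factor, had 510 in the Phf21a siRNA array and 1196 in the control array, 2.34-fold lower (-1.23 ± 0.51), with a second probe set at -0.84. Epas1, which encodes HIF-2 alpha, had 55.9 in the Phf21a siRNA array and 128 in the control array (-1.20 ± 0.64). P4ha1, a collagen prolyl hydroxylase, was at -0.90 ± 0.46 on one probe set and -0.86 on the other. Pdk1, a kinase that restrains pyruvate dehydrogenase, was at -0.78 ± 0.47, with 3 detected probe sets from -0.83 to -0.74; it was picked after its values were seen.

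Car9, a carbonic anhydrase, was detected only in the control array and close to the limit (27.9 in the Phf21a siRNA array and 51.6 in the control array, -0.01 when raised to the limit). The glycolytic genes on the list were nearer to 0, with Pgk1 at -0.12 and Ldha at -0.31, also picked after their values were seen. The brightest probe set of Hif1a, likewise picked, was at -0.26 ± 0.27, and all 4 of its probe sets ranged from -0.95 to 0.73. Vhl (0.69 ± 0.52) and Egln2 (0.61 ± 0.47), which take part in HIF degradation, were the 2 at least 1.5-fold higher, at -0.03 and -0.12 with scaling to the poly-A controls. Adm was at -0.13 and -0.91 on its probe sets, and the listed genes ran from -1.23 to 0.69. Of all detected genes 5.47% were at least 2-fold lower and 15.2% at least 1.5-fold higher. Most genes thus lie within that range, and the place of Adm in it does not tie the ligand to the list.

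**Figure D4:**
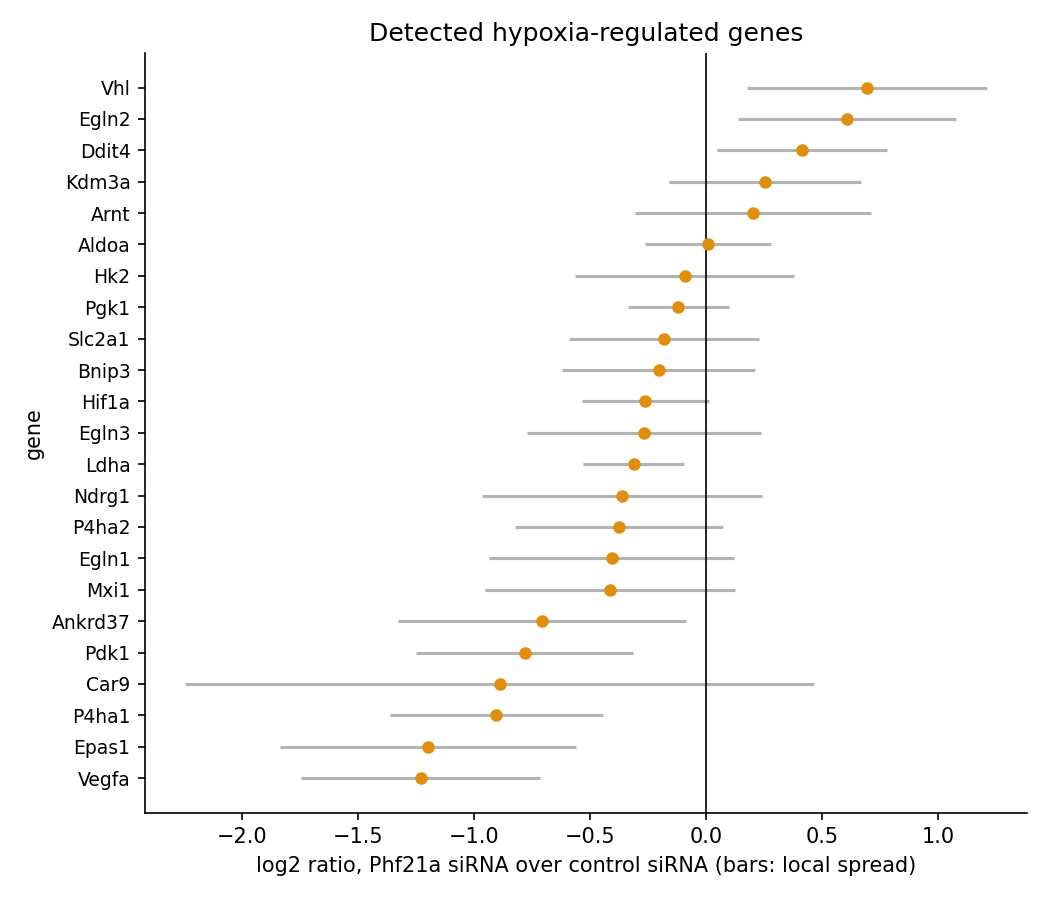
Log2 ratios of Phf21a siRNA over control siRNA for the 23 detected hypoxia-regulated genes, 1 array per group; bars are ± the local spread among probe sets of like signal, not an error between cultures. Vegfa at -1.23 and Epas1 at -1.20 are lowest and Vhl at 0.69 is highest.

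The receptor and its RAMPs are best known from endothelium, so markers of other cell types were read beside them. Of 14 endothelial markers 1 was detected, and 5 were under the floor in both arrays. Their summed signal was 201 in the Phf21a siRNA array and 252 in the control array. Pecam1 had 5.07 in the Phf21a siRNA array and 10.0 in the control array, and Tie1 had 1.03 in the Phf21a siRNA array and 1.27 in the control array, so these defining markers were at background. The detected one, Flt1, had 11.0 in the Phf21a siRNA array and 69.1 in the control array, the signal in the Phf21a siRNA array being under the floor.

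Of 8 mural cell markers 6 were detected, with a summed signal of 17985 in the Phf21a siRNA array and 13261 in the control array. The median log2 ratio of the list was 0.09. Tagln, an actin-binding protein of smooth muscle, was at 1.04, Pdgfrb, a growth factor receptor, at 0.84, Mcam at -0.43 and Acta2, smooth muscle actin, at 0.34, and fibroblasts also express Acta2 and Pdgfrb. Leukocyte markers were detected in 3 of 9 cases, with a summed signal of 710 in the Phf21a siRNA array and 398 in the control array. Csf1r, a macrophage growth factor receptor, was at 1.18, with its 3 probe sets from 0.18 to 1.18, Cd68 at 0.89 and the lysozyme gene Lyz2 at 0.42. The poly-A scaling gave 0.45 for Csf1r, 0.17 for Cd68 and -0.30 for Lyz2. The pan-leukocyte gene Ptprc was under the floor in both arrays. The labels name 3T3-L1 cells only, and a detected marker does not by itself mean that mural cells or leukocytes were present. Whether these marker values bear on those of the members was not tested.

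**Figure D5:**
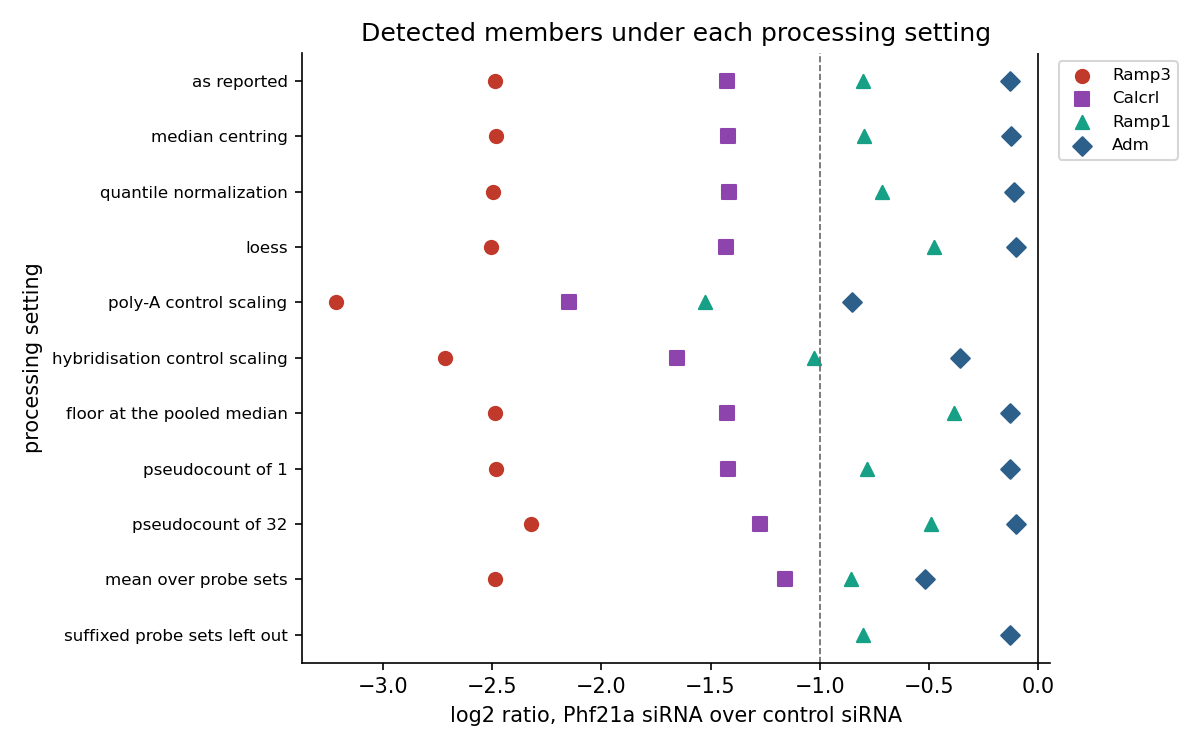
Log2 ratios of Phf21a siRNA over control siRNA of the 4 detected members as reported and under 10 other processing settings, 1 array per group; the dashed line marks 2-fold lower. Ramp3 lies between -3.21 and -2.32 and Calcrl between -2.15 and -1.16; both have no point where suffixed probe sets are left out.

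Under the other processing settings the detected members kept the order Ramp3, Calcrl, Ramp1, Adm from lowest to highest log2 ratio wherever they had a value. Ramp3 ranged from -3.21 to -2.32, Calcrl from -2.15 to -1.16 and Adm from -0.85 to -0.10. Ramp3 and both detected Calcrl probe sets carry the suffix _a_at, given where all probes match transcripts of one gene, and leaving out suffixed probe sets removes these genes.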

How the data were processed

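The deposited values are MAS5 signal intensity on a linear scale, per the submitters' processing notes; no version of it is stated there. MAS5 subtracts mismatch probes, so low signals are uncertain. Each array had a mean of 500.003 after trimming 2% of probe sets at either end, a scaling that cannot show a change in RNA per cell. Groups came from the sample descriptions, with 1 array each. Of 45101 probe sets 34945 named 1 gene.

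The floor was the 25th percentile of signals pooled over both arrays without control probe sets, and the detection limit their median. A gene was read on its brightest detected probe set, with _x_at sets used only where no other was detected. No test was run, and genes were counted by size. Named genes are all member probe sets, Phf21a, every detected gene of the calcitonin family list, up to 4 genes farthest from 0 in each other list, and the 3 genes nearest to each detected member. Pdgfra, Adipoq, Pecam1, Tie1 and Ptprc were added as defining markers after their values were seen. Members and the 10 lists (126 entries, 6 without a probe set of 1 gene) were chosen with earlier results of these data known. Promoters came from RefSeq. The procedure was tested on simulated data. Python 3.11.15, numpy 2.4.6, pandas 2.3.3, statsmodels 0.14.6 and matplotlib 3.10.9 were used.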

Additional observations from a re-analysis of the deposited data

How the results depend on the processing

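No paired analysis was possible because each group has 1 array, and for the same reason no replicate could be left out. A member's value was taken as unmoved within its local spread, and a list median within 0.2. Scaling to the poly-A controls moved Ramp3 to -3.21, Calcrl to -2.15 and Adm to -0.85. It gave medians of -1.94 for the calcitonin family, -0.67 for peptide maturation, -1.11 for other RAMP-binding receptors, -0.55 for desensitisation and traffic, -0.83 for Gs and cAMP and -0.99 for hypoxia-regulated genes. Scaling to the hybridisation controls gave -1.45, -0.17, -0.62, -0.056, -0.33 and -0.50 for these lists in the same order. Over all detected genes such scaling shifted the median by -0.73 and -0.23. Averaging probe sets gave -0.30 for desensitisation and traffic. Leaving out suffixed probe sets gave -0.46 for the calcitonin family, -0.60 for other RAMP-binding receptors and -0.25 for desensitisation and traffic, where fewer genes remain. With no detection limit the calcitonin family median was -0.62. The number of members at least 2-fold changed, 2 as reported, was 0 without suffixed probe sets, 1 with detection at the 75th percentile and 1 at 3-fold. It was 3 with either control scaling and 3 at 1.5-fold, Ramp1 being the added gene. Low signal limits Ramp1 and Ramp2: the Ramp1 value ran from -1.53 to -0.39, and that of Ramp2 from -0.60 to 1.16. The 1.16 came from the loess setting, which subtracts a curve fitted to detected probe sets only. Ramp2 lay under the signal range of that curve, so its loess value is not informative. The next highest Ramp2 value was 0.28, with quantile normalization. The medians for peptide maturation, for desensitisation and traffic and for Gs and cAMP changed sign with the setting, the last to 0.0097 with averaged probe sets and 0.024 with no detection limit. The median was below 0 in 12 of 12 settings for hypoxia-regulated genes and for the calcitonin family. For other RAMP-binding receptors it was below 0 in 11 of 11. All settings rework the same 2 arrays, so these counts are not independent evidence.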
